A study of Mus musculus with 8 samples.

Results

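The 35 interferon-stimulated genes described here were taken by symbol from a table of 24016 genes measured in mouse CD4+ T cells. They include transcription factors, nucleic acid sensors, antiviral effectors and interferon-inducible GTPases. The rule rests on the symbols alone, and all 35 were in the table. All 35 also passed the filter on low values, which kept 12881 genes with at least 1 CPM (reads scaled so that each library sums to 1000000) in at least 2 libraries. RNA sequencing of spleen CD4+ T cells compared Treg cells with non-Treg cells in mice with a monoclonal and in mice with a polyclonal T cell receptor repertoire, with 2 libraries in each of the 4 groups, called A and B.

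Every group was on the NOD background, a strain prone to autoimmune diabetes, and carried FoxP3GFP, a green fluorescent reporter of the Treg-defining factor Foxp3. Monoclonal Treg libraries came from reporter-positive cells of NOD.TCRab.FoxP3GFP.Rag-/- mice, labelled NT for nuclear transfer, and monoclonal non-Treg libraries from reporter-negative cells of the same strain. Polyclonal Treg and polyclonal non-Treg libraries came from the reporter-positive and reporter-negative cells of NOD.FoxP3GFP mice, labelled WT. A mouse without a Rag gene makes no B cells and no T cells beyond those with the introduced receptor. The labels give neither the age of the mice nor which Rag gene was removed, nor whether animals were pooled. Strain, Rag genotype and receptor differed together, so between the mice they cannot be told apart. The labels do not state that replicates are different animals, so a p-value here covers only the variation among these libraries, possibly technical.

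Interferons are cytokines that cells release on sensing infection. Type I interferons signal through Ifnar1 and Ifnar2 to a complex that holds Stat2 and Irf9 and binds the interferon-stimulated response element (ISRE). Interferon-γ signals through Ifngr1 and Ifngr2 and acts on genes through the interferon-γ-activated site (GAS). Many of the genes below carry one or both elements. In T cells both pathways act on differentiation and survival, and Treg cells are known to respond to both cytokines.

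Depth ran from 14076330 reads in polyclonal Treg A to 19722321 in polyclonal Treg B, and a count of 0 allows up to 3 reads, or 0.152 to 0.213 CPM. Foxp3 measured 2709 and 2667 CPM in monoclonal Treg A and B against 405 and 319 CPM in monoclonal non-Treg libraries. In polyclonal cells it measured 2349 and 2281 CPM in Treg against 81.9 and 84.2 CPM in non-Treg libraries. The T cell gene Cd3e lay between 406 and 805 CPM in the 8 libraries, lowest in monoclonal non-Treg A and B at 454 and 406 CPM. T cell markers (6 genes) summed to 3526 to 3592 CPM in monoclonal against 4021 to 4853 CPM in polyclonal Treg libraries. In non-Treg libraries they summed to 3165 to 3340 against 4957 to 5137 CPM. Since the labels do not name the deleted Rag gene, Rag1, at 3.27 to 8.96 CPM in monoclonal and 0 to 1.17 CPM in polyclonal libraries, checks nothing here.

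Markers of dendritic cells, macrophages and monocytes, neutrophils and NK cells summed higher in monoclonal than in polyclonal libraries, within Treg and within non-Treg cells. Plasma cell and T cell markers summed lower. The 8 plasmacytoid dendritic cell markers, Irf8 included, summed to 236 to 394 CPM in Treg against 797 to 1065 CPM in non-Treg libraries of the monoclonal mice, and to 122 to 132 against 130.3 to 143 CPM in those of the polyclonal mice, with none at 0. For 9 conventional dendritic cell markers the sums were 523 to 568 CPM in Treg against 1999.5 to 2489 CPM in non-Treg libraries (monoclonal) and 11.4 to 13.0 CPM in Treg against 29.2 to 30.5 CPM in non-Treg libraries (polyclonal), with Clec9a, Batf3 and Clec10a at 0 in polyclonal Treg libraries. Macrophage and monocyte markers (9 genes) summed to 855 to 1058 CPM in monoclonal Treg against 653 to 663 CPM in monoclonal non-Treg libraries, and to 75.2 to 81.8 CPM in polyclonal Treg against 103 to 111 CPM in polyclonal non-Treg libraries, with Fcgr1 at 0 in polyclonal Treg libraries. Neutrophil markers (7 genes) summed to 215 to 1355 CPM in monoclonal Treg against 80.0 to 424 CPM in monoclonal non-Treg libraries, and to at most 2.42 CPM in any polyclonal library. Their spread sets monoclonal Treg A apart, with S100a9 at 497 CPM against 77.9 CPM in replicate B. B cell markers (8 genes) reached at most 41.8 CPM in any library, and Pax5 was at 0 in every group but monoclonal non-Treg. Class II presentation genes (5) summed to 4822 to 6500 CPM in monoclonal Treg and 18702 to 20962 CPM in monoclonal non-Treg libraries. In polyclonal libraries they summed to 69.3 to 84.5 and 176 to 229 CPM. Plasma cell markers (5) had 188 to 235 CPM in monoclonal against 240 to 302 CPM in polyclonal Treg libraries, and 148 to 166 against 168 to 172 CPM in non-Treg libraries. NK cell markers (7) had 64.8 to 66.0 against 11.2 to 25.4 CPM, and 82.6 to 84.0 against 52.6 to 54.9 CPM. The part of these cells and genes in the results below was not tested.

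The elements that interferon signalling acts on could be read for 26 of the 35 genes, which have a window in the RefSeq promoter table (mouse GRCm38.p6, 250 bases before to 50 bases after the gene start). The other 9 (Mx1, Mx2, Oas2, Usp18, Zbp1, Rtp4, Dhx58, Iigp1 and Parp14) were not analysed here. An ISRE core, written here as GAAA, any 2 bases and GAAA again on either strand, was found in 14 of the 26 genes (53.8%), against 3.99% of 27025 genes with a window. A GAS, TTCNNNGAA on either strand, was found in 7 of the 26 (26.9%), against 9.55% of all genes. A total of 10 genes held only the ISRE core, 3 only a GAS, 4 both (Bst2, Igtp, Irgm2 and Oas1a) and 9 neither (Cmpk2, Ifi44, Ifi47, Irf7, Irf9, Oasl1, Oasl2, Tap1 and Xaf1). By role, the core was in 5 of 6 interferon-inducible GTPases with a window, 2 of 4 OAS genes, 2 of 3 IFIT genes, both sensors (Ddx58 and Ifih1), Isg15, and 2 of 7 other effectors. A match is a run of letters and no measurement of binding.

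The stretches that carry these letters are printed 5′ to 3′ on the gene's strand for 5 genes whose calls are described below and for Isg15, a usual readout of interferon that was called in no comparison, with the letters of the motifs in capitals. Igtp (chr11:58199496-58199545, plus strand) and Irgm2 (chr11:58214887-58214936, plus strand), neighbouring GTPase genes, share 48 of the 50 bases shown, and in both a GAS stands 2 bases before an ISRE core.
Igtp: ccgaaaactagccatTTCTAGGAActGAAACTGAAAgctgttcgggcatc
Irgm2: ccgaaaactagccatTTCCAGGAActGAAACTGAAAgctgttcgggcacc
In Gbp3 (chr3:142559979-142560028, plus strand) the core lies on the opposite strand and is repeated with overlap, and in Isg15 (chr4:156200864-156200913, minus strand) it is repeated with overlap on the gene's own strand.
Gbp3: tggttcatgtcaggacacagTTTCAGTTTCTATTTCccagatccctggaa
Isg15: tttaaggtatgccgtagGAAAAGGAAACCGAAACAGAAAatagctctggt
In Bst2 (chr8:71537568-71537617, minus strand) and Oas1a (chr5:120907526-120907630, minus strand) the core is also repeated with overlap on the gene's own strand. The GAS of Bst2 overlaps the first core, while that of Oas1a stands well before both cores.
Bst2: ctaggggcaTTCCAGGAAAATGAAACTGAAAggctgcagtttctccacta
Oas1a: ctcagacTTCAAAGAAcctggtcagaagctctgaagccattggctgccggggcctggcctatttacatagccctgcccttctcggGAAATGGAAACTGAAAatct
Igtp and Irgm2 were called together in the Treg comparisons of both mice described below, whereas Bst2 and Oas1a were called between the mice and in neither Treg comparison.

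**Figure D1:**
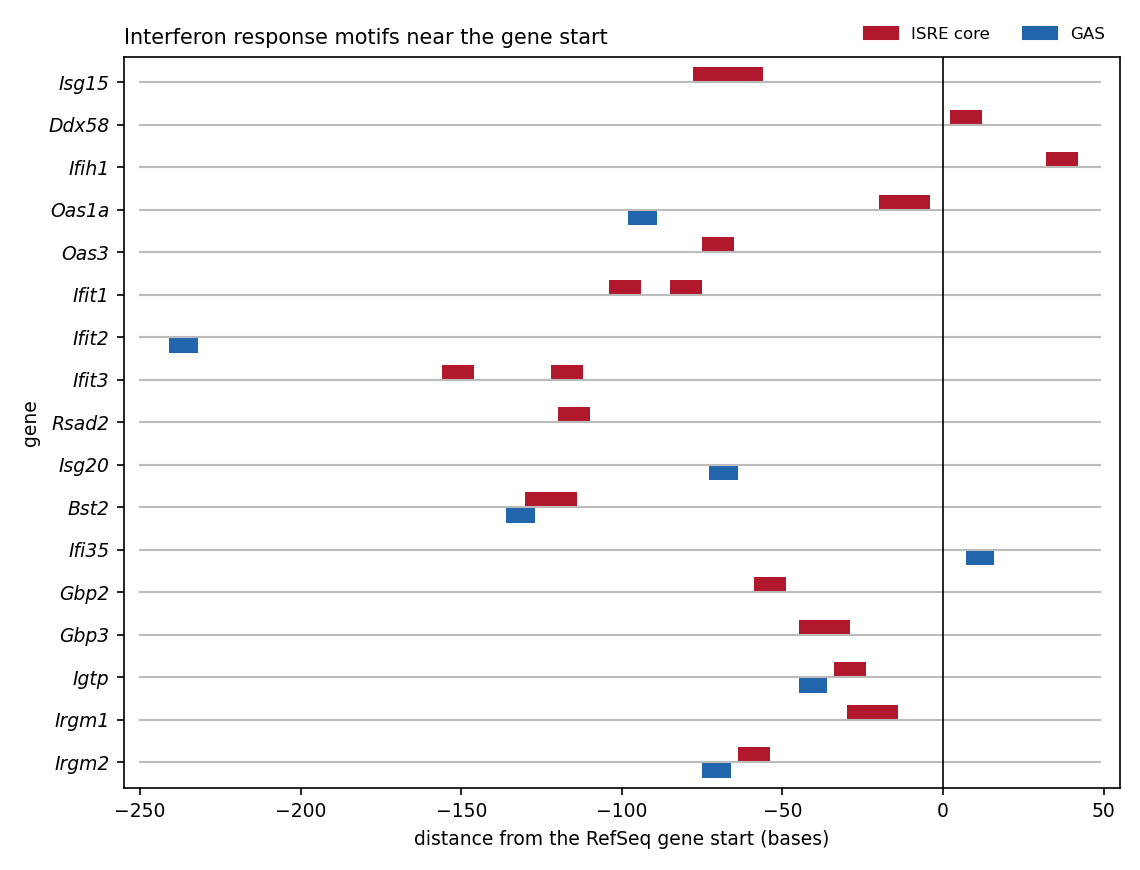
Position of the ISRE core and GAS letters in bases from the RefSeq gene start for the interferon-stimulated genes with a match; each bar is 1 match on either strand or a run of overlapping matches, with ISRE cores in red and GAS in blue. A total of 17 of the 26 genes with a window have a match, and Igtp and Irgm2 show a GAS beside an ISRE core.

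Levels differed widely among the 35 genes. Per kilobase of transcript and averaged over the 8 libraries, Tap1, a peptide transporter of class I antigen presentation, had the highest level at 188 CPM per kb, followed by the GTPase Igtp at 157 and Ifi47 at 103. The lowest were Ifi44 at 0.866 and Oasl1 at 0.753 CPM per kb. Oasl1 was also the single member with a library at 0 reads (polyclonal Treg A, where 0 reads allow up to 0.213 CPM). The highest group mean fell in monoclonal Treg cells for 16 genes, in monoclonal non-Treg cells for 13, and in polyclonal Treg and polyclonal non-Treg cells for 3 each. The 35 genes summed to 4502 and 3604 CPM in monoclonal Treg A and B against 3463 and 3119 CPM in the non-Treg libraries of these mice, and to 3529 and 3654 against 2877 and 2930 CPM in the polyclonal Treg and non-Treg libraries. The sum is carried by the abundant GTPases, Tap1 and Parp14, so the low antiviral genes hardly enter it.

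**Figure D2:**
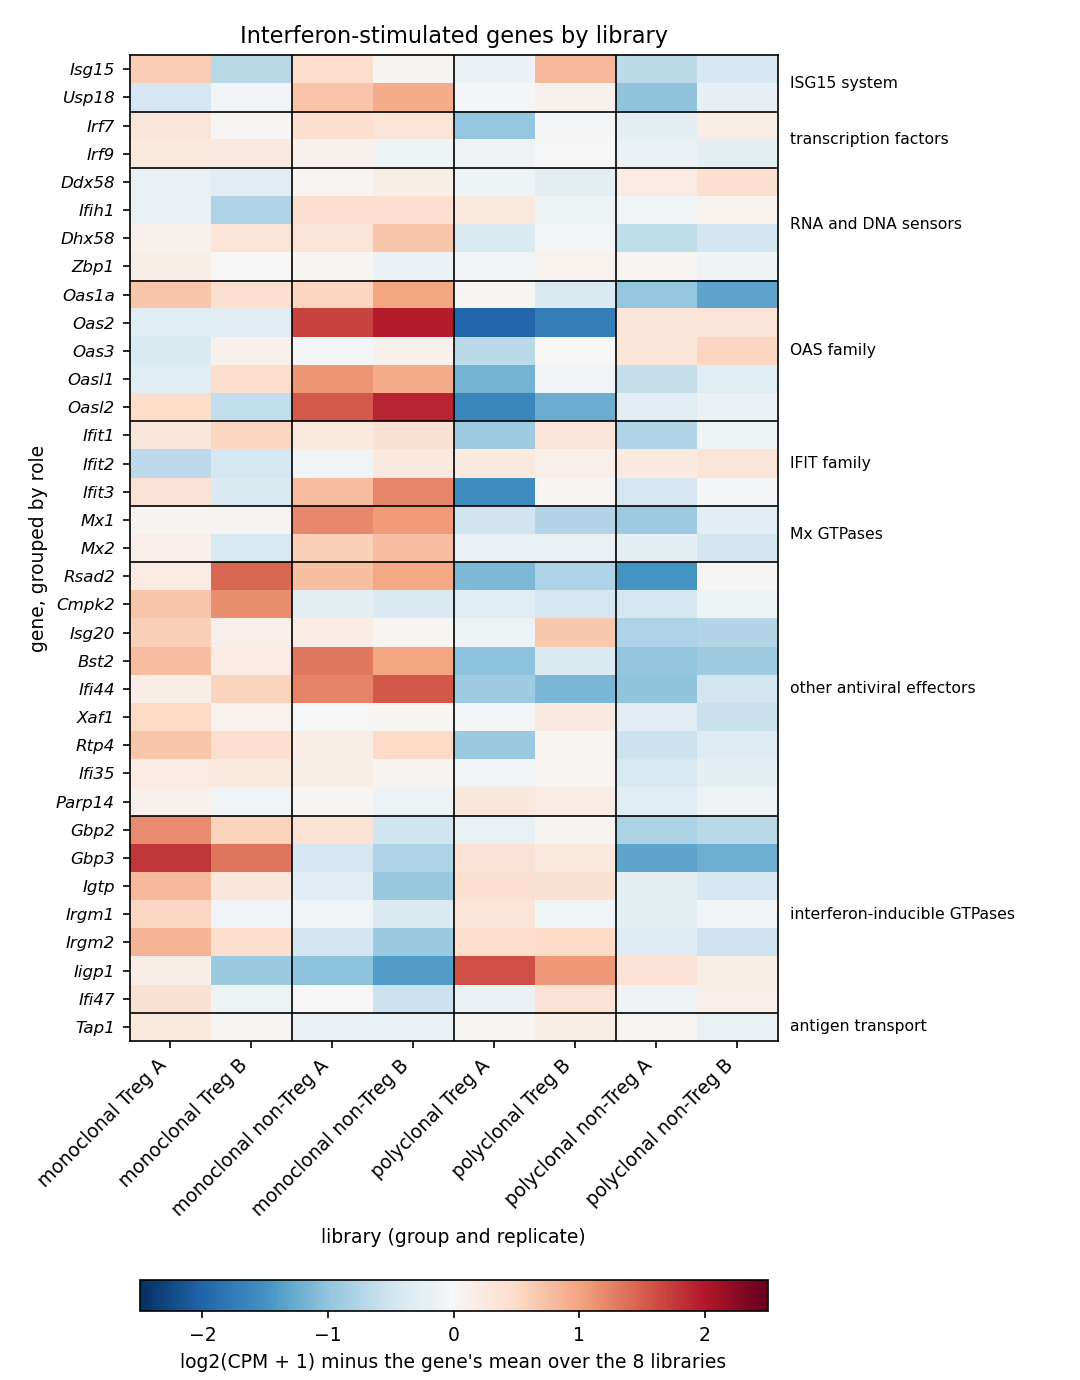
Each of the 35 interferon-stimulated genes (rows, grouped by role) in each of the 8 libraries (columns), coloured by log2(CPM + 1) minus the gene's mean over the 8 libraries. The GTPases Gbp3, Igtp and Irgm2 are high in the Treg columns of both mice, and Oas2, Oasl2, Mx1 and Bst2 are high in the monoclonal non-Treg columns.

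In monoclonal mice, Treg cells had more of 4 interferon-inducible GTPases and of Cmpk2, and less of 6 other antiviral genes, than non-Treg cells. With limma on log2(CPM + 1), adjusted over all genes at a threshold of 0.05, 5 members were higher and 6 lower. That is 31.4% of the 35, against 24.4% of all genes tested (10.8% higher and 13.6% lower). The members' median log2 fold change was -0.04, against -0.02 over all genes, which are close to each other. With CD3 scaling (libraries brought to an equal level of the CD3 genes of the T cell receptor complex) 2 members were higher and 15 lower, and the median of all genes moved to -0.57. Over all 12881 genes that scaling gave 365 higher and 4126 lower. Fold changes are on the log2(CPM + 1) scale, which understates the change of low genes, with standard errors. In bulk samples, fewer cells of a type and less RNA per cell cannot be told apart.

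The GTPases of the GBP and IRG families, which attack the vacuoles of intracellular pathogens, had a positive fold change in 7 of 7 genes in both mice. In monoclonal mice 4 of them (Gbp2, Gbp3, Igtp and Irgm2) were called higher, and in polyclonal mice 4 (Gbp3, Igtp, Irgm2 and Iigp1). With CD3 scaling, 5 of the 7 were positive in monoclonal mice, 2 calls remained there (Gbp3 and Irgm2) and 1 in polyclonal mice (Gbp3). All 7 lay above the median of all genes under that scaling in both mice.

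Gbp3 (chr3:142223460-142236176, mm9 as all positions below), a guanylate-binding protein, had the largest Treg difference of the GTPases, with 409 and 301 CPM in monoclonal Treg A and B against 88.4 and 69.2 CPM in monoclonal non-Treg libraries. In polyclonal cells it measured 151 and 141 CPM in Treg against 47.0 and 50.3 CPM in non-Treg libraries. Both Treg libraries lay above both non-Treg libraries in each mouse. The log2 fold change was 2.15 ± 0.17 (adjusted p = 9.81e-07) in monoclonal and 1.57 ± 0.17 (adjusted p = 3.23e-05) in polyclonal mice, and both calls held under all 17 alternative settings. Irgm2 (chr11:58028479-58036285), a regulatory immunity-related GTPase, measured 256 and 193 CPM in monoclonal Treg against 102 and 74.4 CPM in monoclonal non-Treg libraries, and 194 and 198 CPM in polyclonal Treg against 114 and 99.3 CPM in polyclonal non-Treg libraries. Its fold changes were 1.34 ± 0.17 (adjusted p = 6.96e-05) and 0.87 ± 0.17 (adjusted p = 0.00445). Igtp (chr11:58013058-58021094), its neighbour, which keeps effector GTPases off the cell's own membranes, followed it at higher levels. It had 518 and 361 CPM in monoclonal Treg against 248 and 153 CPM in monoclonal non-Treg libraries, and 393 and 389 against 249 and 221 CPM in polyclonal Treg and non-Treg libraries, with fold changes of 1.15 ± 0.20 (adjusted p = 0.000858) and 0.73 ± 0.20 (adjusted p = 0.0362). No library of one cell type overlapped the other for either gene. The polyclonal calls were less stable: without polyclonal non-Treg B the adjusted p was 0.0843 for Irgm2, and without any one polyclonal library it was 0.112 to 0.287 for Igtp.

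Gbp2 (chr3:142283627-142300972), another guanylate-binding protein, measured 328 and 213 CPM in monoclonal Treg against 185 and 102 CPM in monoclonal non-Treg libraries, with 127 and 151 CPM in polyclonal Treg against 82.3 and 88.0 CPM in polyclonal non-Treg libraries. It was called in monoclonal mice (0.94 ± 0.24, adjusted p = 0.0115) and not in polyclonal mice (0.69 ± 0.24, adjusted p = 0.111), and the test of the difference gave 0.24 ± 0.34 (adjusted p = 0.726). Gbp2 in monoclonal non-Treg A lay near monoclonal Treg B, and the call was lost without monoclonal Treg A (adjusted p = 0.121), monoclonal non-Treg B (0.212), polyclonal Treg A (0.0645) or polyclonal Treg B (0.0665). Iigp1 (chr18:60535683-60552283), an effector GTPase of the IRG family, measured 104 and 48.5 CPM in monoclonal Treg against 45.1 and 34.4 CPM in monoclonal non-Treg libraries, with 285 and 197 CPM in polyclonal Treg against 119 and 103 CPM in polyclonal non-Treg libraries. Its Treg difference was called in polyclonal mice (1.09 ± 0.29, adjusted p = 0.0358) but not without any one polyclonal library (adjusted p 0.0995 to 0.285). In monoclonal mice it was 0.84 ± 0.29 (adjusted p = 0.052). Irgm1, which takes part in autophagy, and Ifi47, also an IRG protein, were not called in either mouse, with fold changes of 0.45 and 0.39 in monoclonal and 0.30 and 0.09 in polyclonal mice.

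The OAS family are enzymes that make oligoadenylates in response to double-stranded RNA and so activate RNase L, and related proteins. In each mouse 2 of the 5 OAS genes, Oas2 and Oasl2, were lower in Treg cells, none was called higher, and 3 were not called. Oas2 (chr5:121180342-121199857) measured 31.5 and 32.0 CPM in monoclonal Treg A and B against 129 and 156 CPM in monoclonal non-Treg libraries. In polyclonal cells it measured 9.24 and 11.1 CPM in Treg against 48.8 and 49.7 CPM in non-Treg libraries. The Treg and non-Treg libraries were far apart in both mice, and the fold changes, -2.13 ± 0.19 (adjusted p = 3.03e-06) and -2.18 ± 0.19 (adjusted p = 4.27e-06), were the largest falls among the 35 genes. The test of their difference gave 0.05 ± 0.27 (adjusted p = 0.933, 95% confidence interval -0.52 to 0.63). Both Oas2 calls held under all 17 alternatives, CD3 scaling included.

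Oasl2 (chr5:115346943-115362254), an OAS-like protein that in the mouse keeps synthetase activity, measured 24.6 and 11.1 CPM in monoclonal Treg against 52.6 and 68.7 CPM in monoclonal non-Treg libraries and 4.97 and 6.85 CPM in polyclonal Treg against 14.2 and 15.8 CPM in polyclonal non-Treg libraries. Its fold changes were -1.79 ± 0.33 (adjusted p = 0.00135) and -1.22 ± 0.33 (adjusted p = 0.0362). The libraries did not overlap in either mouse. The polyclonal call was lost in 8 settings, including those without polyclonal Treg A (adjusted p = 0.123), polyclonal non-Treg A (0.155) or B (0.261), and monoclonal non-Treg A (0.0757) or B (0.081). The other 3 OAS genes were not called in either Treg comparison. Oas1a had fold changes of -0.22 ± 0.34 in monoclonal and 0.98 ± 0.34 in polyclonal mice, Oas3 -0.17 ± 0.26 and -0.75 ± 0.26, and Oasl1, which in the mouse restrains Irf7 translation, -0.95 ± 0.49 and -0.18 ± 0.49. Reads of Oas1a may be shared with its near copy Oas1g, so its values are uncertain.

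Lower calls in monoclonal Treg cells also included Usp18, Mx1, Ifih1 and Ifit2, none of which was called in polyclonal cells. Usp18, the protease that removes ISG15 and damps signalling at Ifnar2, measured 16.7 and 21.5 CPM in monoclonal Treg against 37.5 and 44.1 CPM in monoclonal non-Treg libraries (-1.06 ± 0.28, adjusted p = 0.0124). Mx1 (chr16:97668644-97684512), a dynamin-like GTPase that blocks influenza virus, measured 22.5 and 22.6 against 50.3 and 46.2 CPM in the same groups (-1.06 ± 0.26, adjusted p = 0.00799). Ifih1, the RNA sensor MDA5, measured 36.5 and 24.3 against 55.1 and 56.0 CPM (-0.88 ± 0.22, adjusted p = 0.00907). Ifit2, which binds viral RNA and restrains translation, measured 44.0 and 51.2 against 66.8 and 83.1 CPM (-0.64 ± 0.16, adjusted p = 0.0107). In all 4 genes both Treg libraries lay below both non-Treg libraries, and the dendritic cell sums moved the same way, at 236 to 394 against 797 to 1065 CPM for the plasmacytoid and 523 to 568 against 1999.5 to 2489 CPM for the conventional markers. Class II, B cell and NK cell sums were also lower in Treg cells. Other sums went the other way, with macrophage and monocyte markers at 855 to 1058 against 653 to 663 CPM. Neutrophil markers (215 to 1355 against 80.0 to 424 CPM), T cell markers and plasma cell markers were also higher in Treg cells. Their part in these calls was not tested.

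Each of these calls hung on single libraries. Without monoclonal non-Treg B the adjusted p was 0.14 for Usp18, 0.0646 for Mx1, 0.0856 for Ifih1 and 0.166 for Ifit2, and without monoclonal non-Treg A it was 0.0514 for Usp18, 0.0775 for Mx1 and 0.0598 for Ifih1. Without monoclonal Treg A it was 0.0684 for Usp18 and 0.0572 for Ifit2, and without monoclonal Treg B it was 0.0804 for Ifih1. No direction changed. Tested between the mice, the Treg effect differed by -1.04 ± 0.37 for Mx1 (adjusted p = 0.0958), -0.92 ± 0.31 for Ifih1 (0.0809) and -0.54 ± 0.23 for Ifit2 (0.175), none past the threshold, and Usp18 is taken up below.

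Cmpk2 was the single antiviral effector called higher in monoclonal Treg cells. It encodes a mitochondrial nucleotide kinase and lies beside Rsad2, whose protein viperin makes a chain-terminating nucleotide, on chromosome 12 (chr12:27154080-27164702, plus strand, against chr12:27127608-27141317, minus strand). Cmpk2 measured 22.5 and 31.6 CPM in monoclonal Treg against 11.3 and 10.5 CPM in monoclonal non-Treg libraries (1.22 ± 0.29, adjusted p = 0.00647), and 10.8 and 9.79 CPM in polyclonal Treg against 9.94 and 12.5 CPM in polyclonal non-Treg libraries (-0.10 ± 0.29, adjusted p = 0.926). The test of the difference between the mice missed the threshold at 1.33 ± 0.41 (adjusted p = 0.0558). The neighbour Rsad2 had 8.80 and 22.1 CPM in monoclonal Treg against 13.4 and 15.7 CPM in monoclonal non-Treg libraries, which overlapped, with a fold change of -0.04 ± 0.50. The Cmpk2 call was lost without monoclonal non-Treg B (adjusted p = 0.0686) and with CD3 scaling (0.14).

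**Figure D3:**
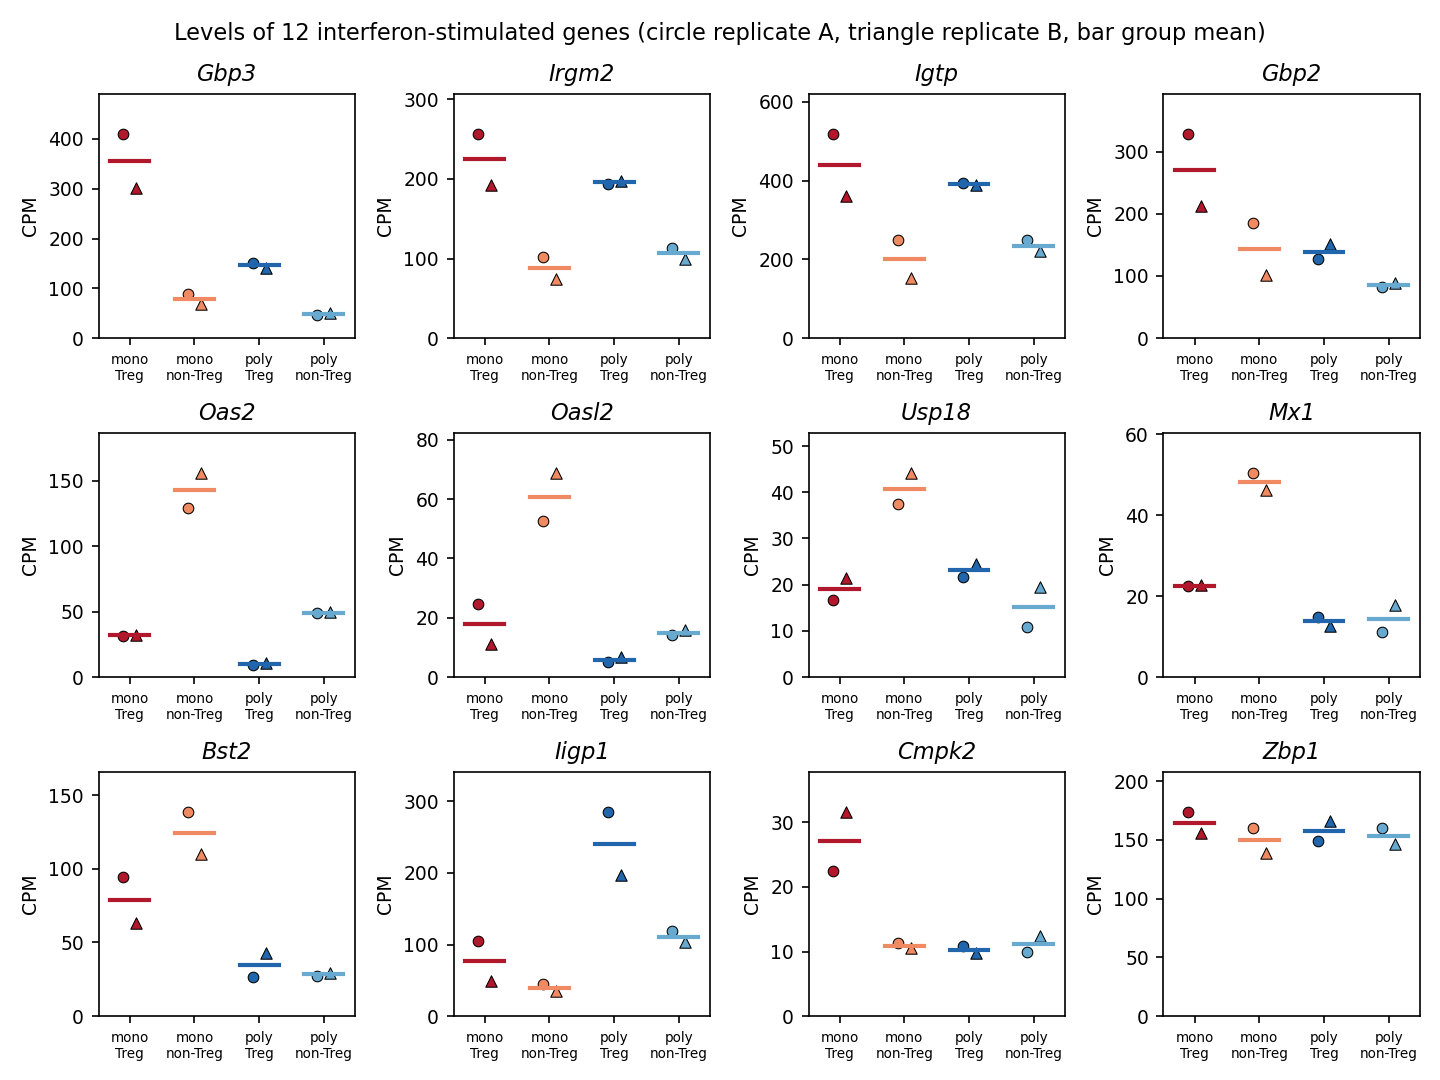
CPM of 12 interferon-stimulated genes in the 4 groups, each panel on its own linear axis from 0; circles are replicate A, triangles replicate B and bars the group mean. Gbp3 stands higher in Treg than in non-Treg cells of both mice, Oas2 stands lower in Treg cells of both mice, and Iigp1 is highest in polyclonal Treg cells at 285 and 197 CPM.

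In polyclonal mice, Treg cells had 5 members higher (Gbp3, Irgm2, Igtp, Iigp1 and Isg20) and 3 lower (Oas2, Oasl2 and Ddx58) than non-Treg cells. That is 22.9% of the 35, against 7.9% of all genes tested (4.63% higher and 3.28% lower), with a median log2 fold change of 0.16 against 0.00 over all genes. With CD3 scaling 1 member was higher (Gbp3) and 1 lower (Oas2). Over all genes that scaling gave 304 higher and 192 lower, against 596 and 422 without it. The geometric mean of the CD3 genes was 385 CPM in polyclonal Treg A and 585 CPM in polyclonal Treg B. Isg20, an exonuclease that degrades viral RNA, measured 20.1 and 35.5 CPM in polyclonal Treg against 12.5 and 12.8 CPM in polyclonal non-Treg libraries (1.02 ± 0.28, adjusted p = 0.0387). Ddx58, the RNA sensor RIG-I, measured 161 and 148 against 200.4 and 229 CPM (-0.47 ± 0.13, adjusted p = 0.0358). The groups did not overlap for either gene. Both calls were fragile: without polyclonal Treg B the adjusted p was 0.227 for Isg20 and 0.0709 for Ddx58, without polyclonal non-Treg A 0.22 and 0.112, without polyclonal non-Treg B 0.214 and 0.449, without monoclonal non-Treg A 0.0762 and 0.0721, and without monoclonal non-Treg B 0.0781 and 0.0735. In these polyclonal libraries the conventional dendritic cell markers summed to 11.4 to 13.0 CPM in Treg and 29.2 to 30.5 CPM in non-Treg cells, and the plasmacytoid ones to 122 to 132 and 130.3 to 143 CPM. Genes within the plasmacytoid list went opposite ways. Siglech had 1.49 and 0.558 CPM in polyclonal Treg against 10.9 and 7.42 CPM in polyclonal non-Treg libraries. Irf8 had 55.8 and 66.8 CPM against 39.6 and 35.8 CPM in the same libraries. Their part in these calls was not tested.

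Set side by side, 3 members were called higher in Treg cells of both mice (Gbp3, Igtp and Irgm2), 2 lower in both (Oas2 and Oasl2), and 21 in neither. Of the 12881 genes tested, 2.11% were higher in both, 1.89% lower in both and 72.4% called in neither. No member was called in opposite directions, as 0.691% of all genes were. The 2 comparisons share no library, but they were estimated with 1 common spread.

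**Figure D4:**
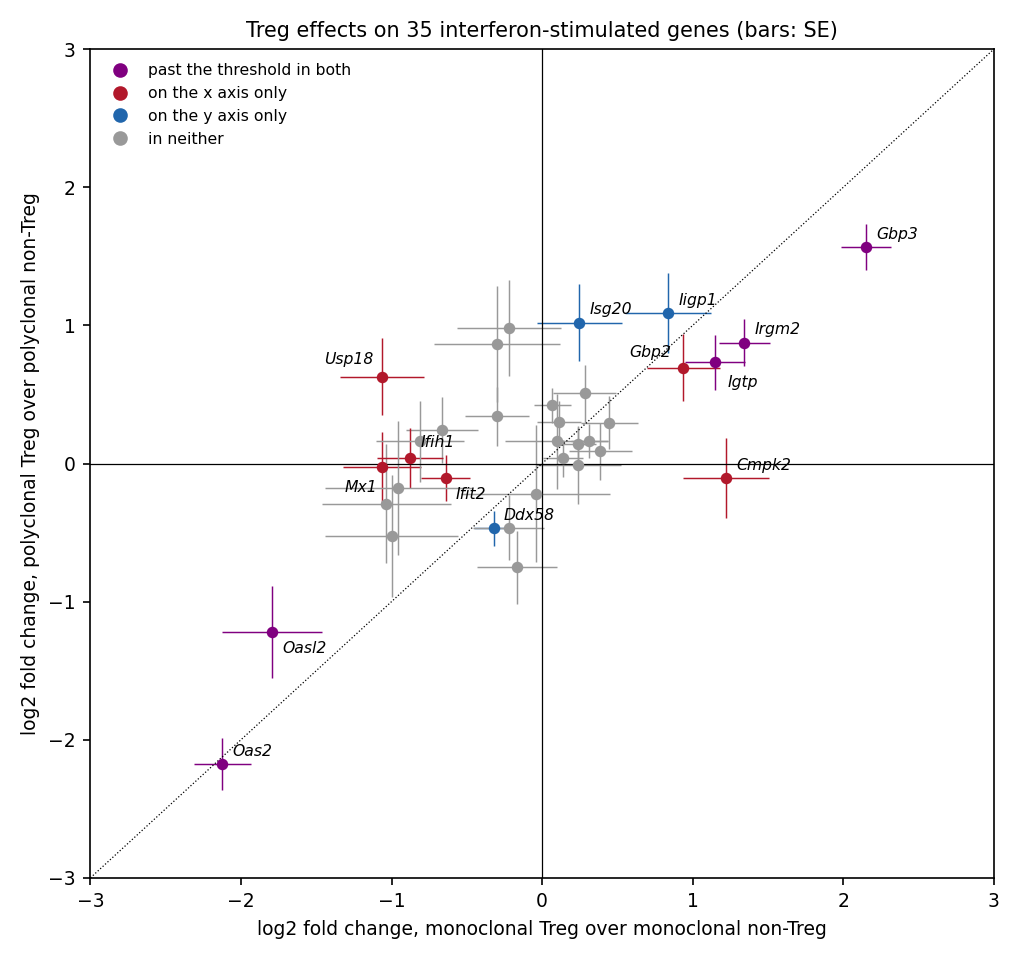
Treg against non-Treg log2 fold change of the 35 interferon-stimulated genes in monoclonal mice (x axis) and polyclonal mice (y axis), on the log2(CPM + 1) scale; colours show in which comparison a gene passed the adjusted threshold of 0.05. Gbp3, Irgm2 and Igtp lie at the upper right and Oas2 and Oasl2 at the lower left.

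The Treg difference was tested between the mice in the same model. It was lower in monoclonal mice for 1 member, Usp18, and higher for none, which is 2.86% of the 35 against 9.2% of all genes tested (3.64% higher and 5.56% lower). At an unadjusted p under 0.05, limma gave 2 members higher and 7 lower. The share of all genes at that unadjusted threshold was not counted, so these counts cannot be judged against it. At the adjusted threshold, edgeR called 0 members higher and 1 lower, and 316 and 631 of the 12881 genes. DESeq2 called 1 member higher and 1 lower, and 531 and 852 of the 12881 genes. The members' median difference was -0.19, against -0.03 over all genes. With CD3 scaling 6 members were lower and none higher, with a median of all genes of -0.59. Over all 12881 genes that scaling gave 74 higher and 1341 lower. Usp18 (chr6:121195924-121220935) measured 16.7 and 21.5 CPM in monoclonal Treg against 37.5 and 44.1 CPM in monoclonal non-Treg libraries, with 21.7 and 24.4 CPM in polyclonal Treg against 10.8 and 19.5 CPM in polyclonal non-Treg libraries. The order of cell types was thus opposite in the mice, with Treg below non-Treg libraries in monoclonal and above them in polyclonal mice. The difference of the Treg effects was -1.69 ± 0.39 (adjusted p = 0.0152, 95% confidence interval -2.53 to -0.85), of which the polyclonal effect alone was 0.63 ± 0.28 (adjusted p = 0.236). The call was lost without monoclonal non-Treg A (adjusted p = 0.052), monoclonal non-Treg B (0.116) or polyclonal non-Treg A (0.0996, log2 difference -1.29), and without the filter on low values (0.0578).

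Between the mice, the members called were mostly higher in monoclonal cells. Among non-Treg cells 13 members were higher in monoclonal mice and 1 lower, which is 40% of the 35 against 19.4% of all genes tested (12.1% higher and 7.35% lower), with a median log2 fold change of 0.68 against -0.07 over all genes. Among Treg cells 9 members were higher in monoclonal mice and 2 lower, 31.4% against 24.2% of all genes (12.1% in each direction), with a median of 0.23 against -0.03. Oas2, Oasl2, Bst2, Ifi44, Rsad2 and Gbp3 were higher in both cell types and Iigp1 lower in both. A total of 17 members were called in neither. Over all genes, 6.11% were higher in both cell types, 2.93% lower in both, 0.66% opposite and 66.1% called in neither. Scaling to CD3 moved the median of all genes to 0.42 in the non-Treg comparison, where 22 members were then called higher and none lower, so directions in that comparison are relative to the library total. Over all 12881 genes that scaling gave 2426 higher and 118 lower there. The geometric mean of the CD3 genes was 361 and 302 CPM in monoclonal against 467 and 482 CPM in polyclonal non-Treg libraries.

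Among effectors, Bst2 (chr8:74058161-74061336), the tetherin that holds budding virus at the cell surface, had 139 and 110.4 CPM in monoclonal non-Treg against 27.2 and 29.4 CPM in polyclonal non-Treg libraries (2.09 ± 0.24, adjusted p = 1.4e-05). In Treg cells it had 94.8 and 63.6 CPM in monoclonal against 26.4 and 42.9 CPM in polyclonal libraries (1.18 ± 0.24, adjusted p = 0.00238). Every monoclonal library lay above every polyclonal one of either cell type, and both calls held under all 17 alternatives. The Treg comparison of Bst2 within monoclonal mice was -0.66 ± 0.24 (adjusted p = 0.0565), short of the threshold. Rsad2 had 13.4 and 15.7 CPM in monoclonal against 2.03 and 7.75 CPM in polyclonal non-Treg libraries (1.59 ± 0.50, adjusted p = 0.0362) and 8.80 and 22.1 against 2.91 and 4.01 CPM in Treg libraries (1.77 ± 0.50, adjusted p = 0.0187). Its libraries spread widely, and each Rsad2 call was lost when single libraries were left out. Without polyclonal non-Treg A the non-Treg fold change was 0.83 (adjusted p = 0.422), without monoclonal non-Treg A or B its adjusted p was 0.131 or 0.228, and without monoclonal Treg B the Treg fold change was 1.15 (adjusted p = 0.163). Without polyclonal Treg A it was 1.59 (adjusted p = 0.0844).

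Ifi44, an interferon-induced protein at the low end of the set, had 5.55 and 7.16 CPM in monoclonal against 0.380 and 1.03 CPM in polyclonal non-Treg libraries (2.13 ± 0.43, adjusted p = 0.00234). In Treg cells it had 2.10 and 3.11 against 0.497 and 0.254 CPM (1.38 ± 0.43, adjusted p = 0.0307), a call lost in 10 settings with adjusted p up to 0.122, among them those without monoclonal Treg B (0.0942), polyclonal Treg A (0.0718) or B (0.102), and any one non-Treg library (0.054 to 0.0591). The non-Treg call was lost without polyclonal non-Treg A (0.0556). All monoclonal Ifi44 values were above all polyclonal ones. Rtp4, a chaperone-like protein with antiviral activity, had 48.9 and 40.4 CPM in monoclonal against 15.3 and 30.8 CPM in polyclonal Treg libraries (0.998 ± 0.28, adjusted p = 0.0192), and without monoclonal Treg A or polyclonal Treg A its adjusted p was 0.104 or 0.169, with a fold change of 0.51 in the second case. Cmpk2 was higher in monoclonal than in polyclonal Treg cells (1.30 ± 0.29, adjusted p = 0.00452) under all 17 alternatives, and in non-Treg cells it was -0.03 ± 0.29 (adjusted p = 0.967). Isg20 was called in non-Treg cells, with 25.1 and 22.7 CPM in monoclonal against 12.5 and 12.8 CPM in polyclonal libraries (0.86 ± 0.28, adjusted p = 0.045), and not without any one of these 4 libraries (adjusted p 0.161 to 0.218).

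Of the 5 OAS genes, 4 were higher in monoclonal mice among non-Treg cells and 2 among Treg cells, and none passed the limma test of the difference between these effects (Oas1a alone had an unadjusted p under 0.05, at -1.20 ± 0.49). Oas2 had 129 and 156 CPM in monoclonal against 48.8 and 49.7 CPM in polyclonal non-Treg libraries (1.51 ± 0.19, adjusted p = 3.59e-05), and 31.5 and 32.0 against 9.24 and 11.1 CPM in Treg libraries (1.56 ± 0.19, adjusted p = 3.55e-05). Oasl2 had 1.94 ± 0.33 (adjusted p = 0.000636) in non-Treg and 1.36 ± 0.33 (adjusted p = 0.00847) in Treg cells. Its Treg call was 0.82 without monoclonal Treg A (adjusted p = 0.077). Oas1a (chr5:121346266-121357534), with the caution on its near copy, had 12.2 and 17.0 CPM in monoclonal against 3.61 and 2.65 CPM in polyclonal non-Treg libraries (1.91 ± 0.34, adjusted p = 0.000928). Oasl1 (chr5:115373249-115387920) had 3.94 and 3.35 against 0.506 and 0.839 CPM (1.48 ± 0.49, adjusted p = 0.0472), and its call was lost in 9 settings, with adjusted p of 0.162 to 0.271 without any one non-Treg library. The fifth gene, Oas3, had -0.37 ± 0.26 (adjusted p = 0.383) in non-Treg and 0.21 ± 0.26 (adjusted p = 0.608) in Treg cells.

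Both Mx genes were higher in monoclonal non-Treg cells. Mx1 had 50.3 and 46.2 CPM in monoclonal against 11.0 and 17.7 CPM in polyclonal non-Treg libraries (1.72 ± 0.26, adjusted p = 0.000195). Mx2, listed under a non-coding RefSeq transcript, had 20.2 and 23.0 against 11.0 and 9.23 CPM (1.03 ± 0.29, adjusted p = 0.0223), and not without any one of these libraries (adjusted p 0.0889 to 0.194). Usp18 had 37.5 and 44.1 against 10.8 and 19.5 CPM (1.42 ± 0.28, adjusted p = 0.00183), and without polyclonal non-Treg A its adjusted p was 0.0511. Dhx58, the sensor LGP2 that tunes Ddx58 and Ifih1, had 43.4 and 55.6 against 21.5 and 24.6 CPM (1.06 ± 0.21, adjusted p = 0.00232), and without monoclonal non-Treg B its adjusted p was 0.0632. In these libraries the conventional dendritic cell markers summed to 1999.5 to 2489 CPM in monoclonal against 29.2 to 30.5 CPM in polyclonal non-Treg cells, the plasmacytoid ones to 797 to 1065 against 130.3 to 143 CPM, and the macrophage and monocyte ones to 653 to 663 against 103 to 111 CPM. Their part in these calls was not tested.

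The GTPases split between the mice. Gbp3 was higher in monoclonal cells of both types, at 1.26 ± 0.17 (adjusted p = 7.93e-05) in Treg and 0.68 ± 0.17 (adjusted p = 0.0097) in non-Treg cells, the second lost without monoclonal non-Treg A (adjusted p = 0.149), polyclonal non-Treg A (0.0945) or B (0.0501). Gbp2 was higher in monoclonal Treg cells (0.93 ± 0.24, adjusted p = 0.0124), and not without monoclonal Treg A (0.133), polyclonal Treg A (0.204) or B (0.0878). Without monoclonal Treg A its fold change was 0.62. Iigp1 went the other way and was the single member lower in monoclonal cells of both types. It had 104 and 48.5 CPM in monoclonal Treg against 285 and 197 CPM in polyclonal Treg libraries (-1.72 ± 0.29, adjusted p = 0.000878), and 45.1 and 34.4 CPM in monoclonal against 119 and 103 CPM in polyclonal non-Treg libraries (-1.47 ± 0.29, adjusted p = 0.00257). Its Treg groups did not overlap, nor did its non-Treg groups, and only CD3 scaling lost a call, that in non-Treg cells (-0.95, adjusted p = 0.0634). Igtp and Irgm2 were called in neither comparison, with fold changes of 0.14 ± 0.20 and 0.18 ± 0.17 in Treg and -0.27 ± 0.20 and -0.29 ± 0.17 in non-Treg cells. Outside the GTPases, Ifit2 was lower in monoclonal Treg cells, with 44.0 and 51.2 CPM against 83.0 and 76.3 CPM in polyclonal Treg libraries (-0.73 ± 0.16, adjusted p = 0.00472), a call lost with CD3 scaling (0.0625). In the Treg libraries of the monoclonal mice the macrophage and monocyte markers summed to 855 to 1058 CPM, against 75.2 to 81.8 CPM in those of the polyclonal mice, and the conventional dendritic cell markers to 523 to 568 against 11.4 to 13.0 CPM. Their part in the differences between the mice was not tested.

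**Figure D5:**
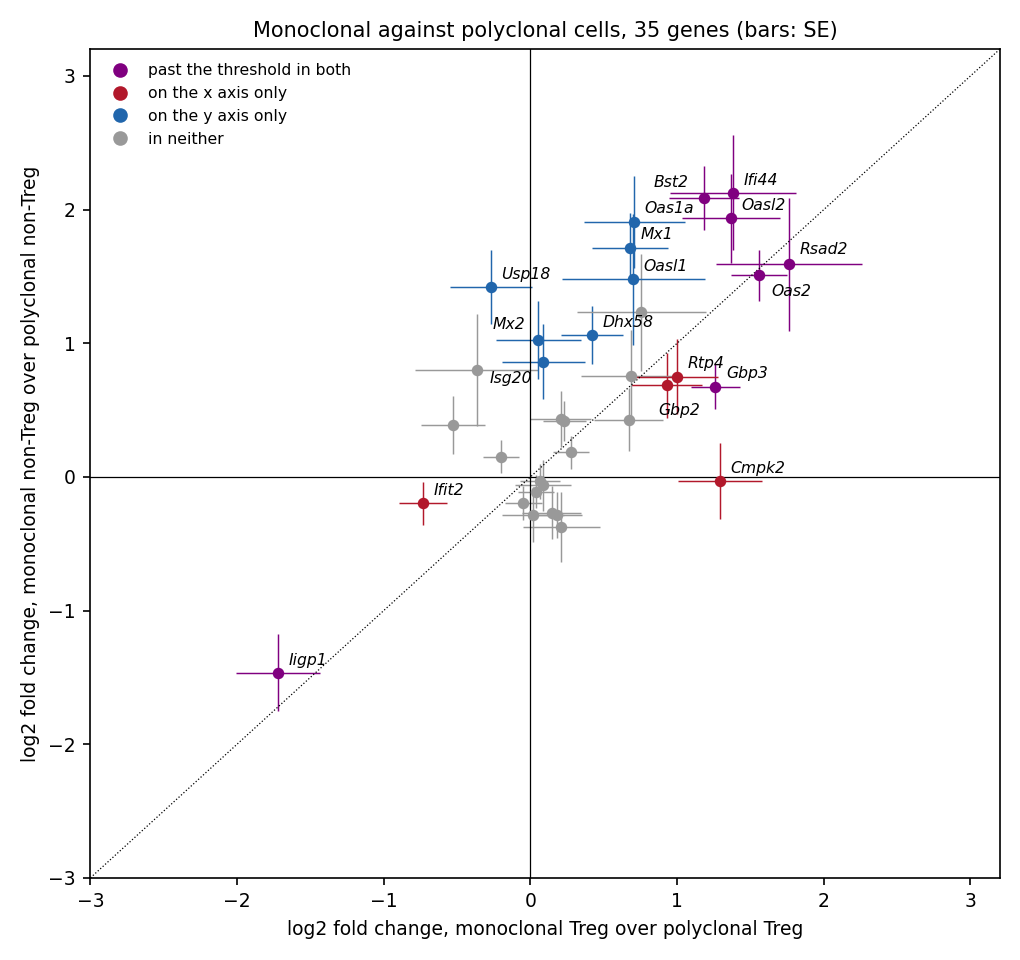
Monoclonal against polyclonal log2 fold change of the 35 interferon-stimulated genes in Treg cells (x axis) and non-Treg cells (y axis), on the log2(CPM + 1) scale; colours show in which comparison a gene passed the adjusted threshold of 0.05. Most genes lie above 0 on the y axis, with Ifi44 at 2.13 and Bst2 at 2.09, and Iigp1 stands apart at -1.72 in Treg and -1.47 in non-Treg cells.

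A total of 13 of the 35 genes passed the threshold in none of the 5 comparisons. They were Isg15, Irf7, Irf9, Zbp1, Oas3, Ifit1, Ifit3, Xaf1, Ifi35, Parp14, Irgm1, Ifi47 and Tap1. Several are the usual readouts of type I interferon. Isg15 (chr4:155573533-155574927), a ubiquitin-like modifier, measured 19.2 and 7.17 CPM in monoclonal Treg against 17.0 and 12.9 CPM in monoclonal non-Treg libraries, with 10.9 and 22.1 CPM in polyclonal Treg against 7.40 and 8.84 CPM in polyclonal non-Treg libraries. Within each Treg group its replicates differed by more than any pair of group means, so no order of groups can be read. Irf7 (chr7:148449082-148452323), the factor that amplifies type I interferon, measured 114 and 93.7 CPM in monoclonal Treg against 124 and 117 CPM in monoclonal non-Treg libraries, with 46.9 and 88.9 CPM in polyclonal Treg against 77.7 and 103 CPM in polyclonal non-Treg libraries. Its nearest call was between monoclonal and polyclonal Treg cells (0.67 ± 0.24, adjusted p = 0.0542). Ifit1, which binds foreign RNA, and its partner Ifit3, both on chromosome 19, also spread within groups. Ifit1 had 11.4 and 27.6 CPM in the polyclonal Treg pair and Ifit3, whose reads may be shared with Ifit3b, 3.69 and 12.9 CPM. Zbp1, a sensor of Z-form nucleic acid that can start cell death, was the flattest member, with group means between 149.7 and 165 CPM. Irf9, the DNA-binding part of the type I factor, was between 173 and 232 CPM in group mean, and Parp14, an ADP-ribosyltransferase, had 0.42 ± 0.12 (adjusted p = 0.0524) in polyclonal Treg cells.

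Of the interferon genes, Ifnb1, Ifna1, Ifna2, Ifna4, Ifna5, Ifna9, Ifnk and Ifne had 0 reads in all 8 libraries, which allows up to 0.152 to 0.213 CPM depending on the library. Ifng, the T cell interferon, was detected with 704 reads in all, at 0.920 and 2.82 CPM in monoclonal Treg against 1.55 and 0.322 CPM in monoclonal non-Treg libraries, with 2.20 and 5.98 CPM in polyclonal Treg against 16.3 and 13.0 CPM in polyclonal non-Treg libraries. Among non-Treg cells it was lower in the monoclonal mice (-3.08 ± 0.51, adjusted p = 0.000447). Its receptor chain Ifngr1 ran the other way, with 828 and 916 CPM in monoclonal Treg against 443 and 456 CPM in monoclonal non-Treg libraries, with 171 and 218 CPM in polyclonal Treg against 105 and 112 CPM in polyclonal non-Treg libraries. It was higher in Treg cells of both mice (0.95 ± 0.13, adjusted p = 0.000135, and 0.83 ± 0.13, adjusted p = 0.000901) and in monoclonal cells of both types (2.17 ± 0.13, adjusted p = 4.13e-08, in Treg and 2.04 ± 0.13, adjusted p = 3.96e-08, in non-Treg cells). CD3 scaling ended both Treg calls of Ifngr1 (0.35, adjusted p = 0.277, in monoclonal and 0.83, adjusted p = 0.0866, in polyclonal mice).

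Of a list of 44 genes upstream of the members (ligands, receptors, kinases and STATs, inhibitors, other IRFs and sensing genes), 42 were in the table and 34 were tested. In Treg against non-Treg cells, 5 were higher and 10 lower in monoclonal mice, and 9 were higher and 1 lower in polyclonal mice. Over all genes, 10.8% were higher and 13.6% lower in monoclonal and 4.63% and 3.28% in polyclonal mice. CD3 scaling gave 1 higher and 15 lower in monoclonal and 4 higher and 0 lower in polyclonal mice. Over all 12881 genes it gave 365 higher and 4126 lower in monoclonal and 304 higher and 192 lower in polyclonal mice. Socs1, the feedback inhibitor of the Jak kinases, was higher in Treg cells of both mice (1.53 ± 0.20, adjusted p = 9.16e-05, and 1.30 ± 0.20, adjusted p = 0.00072). These Socs1 calls held under all 17 alternative settings. Stat2, part of the type I complex named above, was lower in monoclonal Treg cells (-0.59 ± 0.13, adjusted p = 0.00523). In polyclonal ones its fold change was 0.22 ± 0.13 (adjusted p = 0.452). This difference between the mice passed its own test (-0.80 ± 0.19, adjusted p = 0.016). Leaving out monoclonal Treg B or monoclonal non-Treg B ended the Stat2 call in monoclonal mice (-0.42, adjusted p = 0.0615, and -0.57, adjusted p = 0.0662), and leaving out any 1 of 5 libraries ended that of the difference (adjusted p = 0.0598 to 0.0999). The receptor chain Ifnar2 was lower in monoclonal and higher in polyclonal Treg cells (-0.60 ± 0.13, adjusted p = 0.00386, against 0.54 ± 0.13, adjusted p = 0.0174, with a difference of -1.14 ± 0.18, adjusted p = 0.00169). The polyclonal Ifnar2 call was lost under 4 settings, with adjusted p up to 0.438 under CD3 scaling, while the difference held under all 16. Further genes whose Treg effect was lower in monoclonal mice were Ptpn6, Irf4, Irf5, Irf8 and Tlr7, which makes 7 in all, and none was higher. Irf8 (-2.42 ± 0.34, adjusted p = 0.000597) and Tlr7 (-4.15 ± 0.42, adjusted p = 4.71e-05) are also expressed by dendritic cells, whose markers are given above. Irf8 is itself in the plasmacytoid list summed there, at 333 and 216 CPM in monoclonal non-Treg libraries, so that sum is not separate from it. Between the mice, 7 of the 34 were higher and 5 lower in monoclonal Treg cells, and 14 were higher and 4 lower in monoclonal non-Treg cells, where 12.1% of all genes were higher and 12.1% lower in Treg and 12.1% and 7.35% in non-Treg cells. CD3 scaling gave 3 and 0 in Treg cells, 19 and 1 in non-Treg cells, and 0 and 11 for the difference of the Treg effects. Over all 12881 genes it gave 921 and 786, 2426 and 118, and 74 and 1341 in the same order.

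A further list of 60 genes known to be interferon-inducible, apart from the 35, had 58 in the table and 56 tested. In Treg against non-Treg cells 16 were higher and 8 lower in monoclonal mice, and 8 higher and 1 lower in polyclonal mice, beside the same shares of all genes (10.8% and 13.6%, and 4.63% and 3.28%). CD3 scaling turned the monoclonal split to 3 higher and 18 lower, and gave 3 higher and 0 lower in polyclonal mice. Over all 12881 genes it gave 365 higher and 4126 lower in monoclonal and 304 higher and 192 lower in polyclonal mice. The guanylate-binding proteins Gbp5, Gbp6 and Gbp7 were higher in both, at 1.12, 1.61 and 2.10 in monoclonal and 1.55, 1.02 and 0.76 in polyclonal mice. Gbp7 had the larger effect in monoclonal mice (1.34 ± 0.25, adjusted p = 0.00399), a call that CD3 scaling ended (0.74, adjusted p = 0.245). CD3 scaling also ended the Gbp5 call in monoclonal mice (0.53, adjusted p = 0.152). In polyclonal mice the Gbp6 call was lost under 9 settings and the Gbp7 call under 5, with adjusted p up to 0.296 and 0.236, and that of Gbp5 under 0. Between the mice, 13 were higher and 7 lower in monoclonal Treg cells, and 11 higher and 3 lower in monoclonal non-Treg cells, led by the membrane protein Ifitm3 (5.31 ± 0.36, adjusted p = 6.37e-08), which macrophages and dendritic cells also express. The shares of all genes were again 12.1% and 12.1% in Treg and 12.1% and 7.35% in non-Treg cells. CD3 scaling gave 6 and 1 in Treg cells and 15 and 0 in non-Treg cells. Over all 12881 genes it gave 921 and 786 in Treg cells and 2426 and 118 in non-Treg cells.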

How the data were processed

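Per the labels' protocols, messenger RNA of spleen CD4+ T cells was selected with poly-dT, strand was kept, and a HiSeq2500 gave single-end reads of 50 bp. Named in the submitters' processing notes, with no role for each, are STAR 2.4.1a, HOMER 4.7, Trimmomatic 0.33, FastQC 0.10.1, CASAVA 1.8.2, edgeR (version not given) and the build mm9. The authors deposited 1 table of CPM for 24016 genes, each with a RefSeq transcript and its mm9 position. Each library sums to 1000000. Divided by the worth of 1 read, 100% of the values came out whole within 0.01 read, so whole reads could be recovered. The sources used here do not say how reads matching several genes were counted or whether strand was used, so values of genes with near copies are uncertain.

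limma 3.58.1 in R 4.3.3 was run on log2(CPM + 1), robustly and with the variance trended on the mean. The fit took all 8 libraries with 1 mean per group, which leaves 4 residual degrees of freedom, and covered the 12881 genes that reached 1 CPM in 2 or more libraries. For 5 comparisons, 2-sided p-values were adjusted over all genes tested (Benjamini-Hochberg) and read at a threshold of 0.05. Samples were grouped by their labels. Errors of fold changes are standard errors of the limma fit, and the 95% confidence intervals were built from them. Floors for counts of 0 cover counting error only. The procedure was checked on simulated data. Alternatives were a pseudocount of 0.25, no filter, a mean of at least 1 CPM, TMM factors, CD3 scaling, a replicate block, edgeR 4.0.16 and DESeq2 1.42.0 on the recovered reads, the compared libraries alone, and leaving out each library. The named genes are all 35 members, those called in the upstream list or used as examples, and the genes most like Irf7 and Gbp2 by Pearson correlation. The values of 1 gene of the upstream list are not reported here. The members and lists were chosen with earlier results of these data known. Motifs were searched in RefSeq promoter windows of GRCm38.p6, which share no coordinates with the mm9 positions of the table.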

Additional observations from a re-analysis of the deposited data

Results flagged for a closer look

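Usp18 was singled out because its Treg effect differed between the mice by a test of the difference itself. It measured 16.7 and 21.5 CPM in monoclonal Treg against 37.5 and 44.1 CPM in monoclonal non-Treg libraries, and 21.7 and 24.4 CPM in polyclonal Treg against 10.8 and 19.5 CPM in polyclonal non-Treg libraries. The monoclonal minus the polyclonal Treg effect was -1.69 on the log2(CPM + 1) scale (limma, adjusted p = 0.0152). In 4 of 16 alternative settings it no longer passed the threshold. The values ran from -2.27 to -1.29 and the adjusted p reached 0.116. No group held enough libraries to look for a single library far from the rest.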

How the results depend on the processing

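No called member changed direction under any of the settings run. Calls that held under all of them were 4 of 11 in the monoclonal Treg comparison, 2 of 8 in the polyclonal one, 0 of 1 in the difference of the Treg effects, 5 of 11 between Treg cells of the mice and 5 of 14 between their non-Treg cells. CD3 scaling gave 2 members higher and 15 lower in monoclonal Treg cells, 1 and 1 in polyclonal Treg cells, 0 and 6 for the difference, 7 and 1 between Treg cells, and 22 higher and 0 lower between non-Treg cells. Over all genes it moved the share of calls that were higher to 8.13%, against 44.4%, in monoclonal Treg cells, to 5.23%, against 39.6%, for the difference and to 95.4%, against 62.2%, between non-Treg cells. Without the filter on low values 2 members were higher and 1 lower in polyclonal Treg cells, beside 400 and 308 of 16170 genes. For the difference 0 members were then lower, beside 467 genes. With edgeR 3 were higher in polyclonal Treg cells, beside 495 of 12881 genes, and with DESeq2 1 was higher for the difference, beside 531. With the compared libraries alone 1 was lower in polyclonal Treg cells and 20 were higher between non-Treg cells. Over all 12881 genes that setting gave 404 higher and 269 lower in polyclonal Treg cells. Between non-Treg cells it gave 2188 higher and 2225 lower genes. Leaving out each library in turn gave 3 to 7 higher and 2 to 10 lower members in monoclonal Treg cells, 1 to 5 and 1 to 4 in polyclonal Treg cells, 0 to 1 and 0 to 4 for the difference, 5 to 10 and 2 to 3 between Treg cells, and 6 to 17 and 1 to 1 between non-Treg cells. Where a group was left with 1 library, that library was assumed to vary like the others. With the replicate block, 6 members were higher and 6 lower in monoclonal Treg cells, and 4 and 2 in polyclonal Treg cells. It gave 0 and 1 for the difference, 10 and 2 between Treg cells, and 13 and 1 between non-Treg cells. Over all 12881 genes the block gave 1337 and 1695 in monoclonal and 548 and 397 in polyclonal Treg cells. For the difference it gave 424 and 670, between Treg cells 1501 and 1468, and between non-Treg cells 1523 and 870. Over the 12881 genes tested, the correlations of A minus B between groups were weak and ran from -0.093 to 0.0969. The labels do not say whether same-lettered libraries share an animal, and weak correlations over all genes cannot exclude it. Genes that were higher in replicate A of both monoclonal groups are given below. Why counts moved was not tested, except that leaving out libraries or the filter changes how many enter the fit. With 2 libraries a group, small differences could not be told from the spread.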

Other observations

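The replicates of the monoclonal mice differed in the same genes. All 7 interferon-inducible GTPases were higher in replicate A than in replicate B in Treg and in non-Treg cells of these mice, with summed CPM 1.45 and 1.46 times as high. In polyclonal Treg and non-Treg cells 4 of 7 and 3 of 7 were higher in replicate A, and the sums stood at 1.04 and 0.998 times. The Treg over non-Treg CPM ratio was close between letters for some genes and not for others. For Gbp3 it was 4.63 in A and 4.35 in B of the monoclonal mice and 3.22 and 2.79 in the polyclonal mice, and for Oas2 it was 0.243 and 0.206, and 0.189 and 0.222. For Isg15 it was 1.13 in A and 0.556 in B of the monoclonal mice, for Oasl2 0.468 and 0.162 and for Iigp1 2.31 and 1.41. Neutrophil markers were also higher in replicate A of both monoclonal groups, with S100a9 at 497 CPM in A and 77.9 CPM in B of the monoclonal Treg cells, and 157 CPM in A and 21.5 CPM in B of the monoclonal non-Treg cells. Their part in the GTPase levels was not tested.

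Across the 8 libraries, the genes whose log2(CPM + 1) was most like that of Irf7 were Arl6ip5 (Pearson r = 0.991), Rpl37a, Mrpl33, Myl12b and Pih1d1 (r = 0.972). Those most like Gbp2 were Stk24 (r = 0.983), Elovl6, Mlkl, Irf9 and P4ha1 (r = 0.956). The points share 4 groups and their depth, so these values only describe the 8 libraries. Irf9 is the one gene of the 35 among them.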
